A study of Mus musculus with 22 samples.

Results

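In total 48 genes of the cilium and of transport inside cilia were followed in the hypothalamus of mice bearing a transplanted lung tumour. They were chosen by name and by level. A gene was taken when its symbol began with Dnah, Dnaic, Dnali, Rsph, Tekt, Spag or Ift followed by a digit, or was Foxj1, Hydin or Tmem212, and when its mean over all 22 arrays exceeded 3.9 on the log2 scale. Of 52 genes with such symbols among the 18820 genes measured, 48 passed and 4 did not. The mean chose the genes and is therefore a description only: just inside were Spag17 at 4.05, Dnah8 at 4.07, Spag11a at 4.08 and Spag16 at 4.25, and outside were Spag6 at 3.76, Dnah17 at 3.69, Tekt3 at 3.67 and Rsph6a at 3.65. A symbol is no proof of a role in motile cilia, and 7 of the Spag genes, among them Spag5 of the mitotic spindle and the defensin-like Spag11a, were kept apart from the structural groups for that reason.

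The mice were male C57BL/6, and each hypothalamus gave 1 array. Lewis lung carcinoma, a transplantable tumour of this strain, was started by intramuscular inoculation of its cells in the hind leg. The 4 groups were tumour-bearing mice killed on day 10 (n = 5), day 14 (n = 7) and day 17 (n = 6), and control mice killed on day 14 (n = 4), whose own handling at inoculation the labels do not describe. The tumour groups of days 10 and 17 had no controls of their own day, and all 3 comparisons share the same 4 control arrays, so the age of the mice and the stage of the tumour cannot be told apart on those days. The labels describe mice housed singly, and p-values measure the spread between them.

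Motile cilia are beating hairs built on a ring of microtubule doublets, the axoneme. Outer and inner dynein arms, made of heavy, intermediate and light chains, drive the beat, while radial spokes and the central apparatus coordinate it, and tektins run along the doublet walls. Intraflagellar transport complexes A and B carry building material along the cilium and serve immotile primary cilia as well, which neurons and most other brain cells bear. In the hypothalamus the motile cilia belong to the ependymal cells that line the third ventricle and move cerebrospinal fluid, and the transcription factor FOXJ1 switches on their gene programme together with RFX factors.

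Sequence upstream of the genes is shown first, because RFX factors bind a known DNA palindrome, the X-box, and FOXJ1 belongs to the forkhead family. RefSeq promoters (GRCm38.p6) were found for 39 of the 48 genes, and the 250 bases before each start were searched on both strands. The X-box was written as the arms GTTNC and GNAAC with any 3 bases between them, or any 4, and the forkhead core as TGTTTA. These forms were chosen after the sequences had been seen, and 0 of the 39 promoters held both an X-box and the forkhead core. The form with 3 bases was present in 8 of 39 genes (20.5%) against 0.962% of 27025 genes with a promoter, that with 4 in 2 (5.13%) against 0.981%, and either in 10 (25.6%) against 1.93%. The 10 genes were Dnah6, Dnah7b, Dnah9, Dnaic1, Dnaic2, Hydin, Ift57, Spag16, Tekt2 and Tekt4. The forkhead core was present in 10 of 39 (25.6%) against 13.5% of all genes. A match is a description of the letters and no proof of binding. Of the 6 stretches below, Dnaic1 and Tmem212 are shown because they were called on day 17, Dnali1 because it had the largest difference on that day, and Dnaic2, Tekt4 and Hydin as further examples of the X-box. Each is 80 bases, 5′ to 3′ on the gene's own strand, with the X-box or, for Tmem212, the forkhead core in capitals; that of Dnali1 holds none of these forms.
Dnaic1 (chr4:41569714-41569793, + strand): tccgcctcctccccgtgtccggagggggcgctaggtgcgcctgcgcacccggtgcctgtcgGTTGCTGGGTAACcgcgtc
Dnaic2 (chr11:114727339-114727418, + strand): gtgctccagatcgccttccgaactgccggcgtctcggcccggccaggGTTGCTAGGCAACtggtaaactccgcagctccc
Tekt4 (chr17:25471510-25471589, + strand): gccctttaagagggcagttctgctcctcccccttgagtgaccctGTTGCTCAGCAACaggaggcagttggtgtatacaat
Hydin (chr8:110266897-110266976, + strand): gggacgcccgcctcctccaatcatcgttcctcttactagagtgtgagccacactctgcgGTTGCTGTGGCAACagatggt
Tmem212 (chr3:27896369-27896448, - strand): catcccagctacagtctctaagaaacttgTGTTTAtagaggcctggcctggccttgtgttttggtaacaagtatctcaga
Dnali1 (chr4:125065658-125065737, - strand): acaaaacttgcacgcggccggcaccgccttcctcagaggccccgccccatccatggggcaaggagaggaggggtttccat
The X-box of Dnaic1 ended 7 bases before the start, that of Dnaic2 21 bases, that of Tekt4 24 bases and that of Hydin 8 bases before it, and the forkhead core of Tmem212 ended 46 bases before it. Among the other matches, Dnah6 held GTTGCTAAGCAAC, Dnah7b held GTTGCTTAGCAAC and Tekt2 held GTTGCTCGGCAAC. Tekt2 had 3 promoter entries, and its 2 matches had the same letters, so they may be 1 site counted from 2 starts.

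On day 17 of tumour growth, 2 of the 48 genes were lower than in controls and 0 were higher. They were Tmem212, a membrane protein gene used as a marker of ependymal cells, and Dnaic1, an intermediate chain of the outer dynein arm. Both differed from controls by about the same amount, -0.41 ± 0.09 (SE) and -0.42 ± 0.10 on the log2 scale, with adjusted p-values of 0.0264 and 0.0374 (limma, Benjamini-Hochberg over all 18820 genes). That is 4.17% of the 48 genes, beside 1.12% of all genes called in either direction and 0.685% called lower. In 8 genes all 6 day 17 arrays lay below all 4 controls, which is 16.7% of the 48 beside 3.30% of all genes, or 4.42% of the 13716 genes with a mean above 3.9. Besides Tmem212 and Dnaic1 these were Foxj1, Dnali1, Ift122, Ift172, Ift46 and Spag1, and 0 genes lay above all controls, beside 1.66% of all genes. In bulk tissue, fewer ependymal cells and less RNA per cell cannot be told apart.

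On days 10 and 14 limma called 0 of the 48 genes, beside 0.106% and 0.218% of all genes. At an unadjusted p below 0.05 there were 9 genes on day 10 (8 lower), 6 on day 14 (4 lower) and 15 on day 17 (12 lower). Of all genes, 10.7%, 10.5% and 16.6% were below that p on the 3 days, and 5.43%, 6.18% and 10.5% were so and lower. All tumour arrays lay below all controls in 2 genes on day 10 (Ift46 and Spag5; 2.24% of all genes) and in 2 on day 14 (Dnaic1 and Ift46; 1.06%). The mean was lower than in controls in 35, 29 and 35 of the 48 genes on days 10, 14 and 17 (72.9%, 60.4% and 72.9%). Of all genes 49.7%, 52.0% and 53.7% were lower, and of genes with a mean above 3.9 the shares were 59.6%, 59.2% and 63.1%. The median difference was -0.07, -0.01 and -0.06, beside 0.00, -0.00 and -0.01 over all genes and -0.02, -0.02 and -0.03 over genes with a mean above 3.9. Tumour groups were also set against each other: between days 17 and 10 limma called 0 of the 48 genes beside 0.00% of all genes (7 at an unadjusted p below 0.05, beside 8.30%), and between days 14 and 10 it called 0, beside 0.00531% (4 unadjusted, beside 7.13%). For 41 of the 48 genes the 95% interval of the day 17 difference stayed within 0.5 of 0. That was so for 17433 of all 18820 genes and for 12892 of the 13716 with a mean above 3.9.

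The medians of the 22 arrays lay between 5.27 and 5.34, any 2 arrays correlated at 0.980 to 0.995 over the probe sets, and 0 pairs held identical values. The rule's mean of 3.9 lies above 3.87, which marks off the top 5% of 1182 probe sets for odorant and pheromone receptors and served as background for the lists, so the rule itself put the 48 genes above it. Of 10 hypothalamic genes 0 lay below background, while 4 of 7 pituitary genes did. Lists for thalamus (9 genes), neurons (7) and astrocytes (8) also had 0 below it, so this does not set the hypothalamus apart. The level of markers of the neighbouring thalamus differed between arrays, with a mean of 9 genes between 6.21 and 7.59 in controls, 6.19 and 6.64 on day 10, 6.13 and 7.16 on day 14 and 6.17 and 6.88 on day 17. All 9 of them had a lower mean than in controls on day 17, with 0 called by limma and 3 at an unadjusted p below 0.05. The 4 arrays highest in these markers were control replicates 3 and 1, day 14 replicate 2 and day 17 replicate 1. Without them limma called 0 of the 48 and 0 of all genes on day 17, with differences of -0.39 for Tmem212 (adjusted p = 0.251) and -0.42 for Dnaic1 (adjusted p = 0.366). When the mean of the thalamic genes entered the fit as a covariate, it called Dnali1 and Tmem212, and Dnaic1 differed by -0.44 (adjusted p = 0.0646). Without the 4 arrays, only control replicates 2 and 4 remained, and 33 of the 48 genes were lower on day 17 (median -0.07). With the covariate 38 were lower (median -0.12), beside 35 (median -0.06) in the main fit. Both alternatives were added after the data were seen.

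Foxj1, the regulator of the motile cilium programme, did not pass the test on any day. Its values in the 4 controls were 5.50, 5.19, 5.33 and 5.32. On day 10 they were 5.44, 5.19, 5.23, 5.09 and 5.16, on day 14 they ran from 4.95 over a median of 5.16 to 5.37, and on day 17 from 4.95 over 5.05 to 5.18. On day 17 all tumour values lay below all controls, of which control replicate 2 was nearest to them, and on days 10 and 14 the groups overlapped. The differences from controls were -0.12 ± 0.08, -0.18 ± 0.08 and -0.27 ± 0.08 (SE), with adjusted p-values of 0.628, 0.398 and 0.0894 in limma.

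Tmem212 (probe set 10497582), whose promoter stretch carries the forkhead core, was 6.40, 6.11, 6.04 and 6.28 in the controls. On day 10 its values were 5.94, 6.24, 6.02, 6.04 and 6.04, and on day 14 they ran from 5.85 over 6.19 to 6.30. On day 17 the lowest was 5.65, the median 5.75 and the highest 5.96. The day 17 arrays thus lay below every control, whereas those of days 10 and 14 overlapped them. The mean fell from 6.21 ± 0.16 (SD, n = 4) to 5.79 ± 0.14 (n = 6), while the differences on days 10 and 14 were -0.15 ± 0.09 (SE, adjusted p = 0.566) and -0.06 ± 0.09 (adjusted p = 0.838). Between day 17 and day 10 the difference of -0.26 ± 0.08 had an adjusted p of 0.437 in limma.

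**Figure D1:**
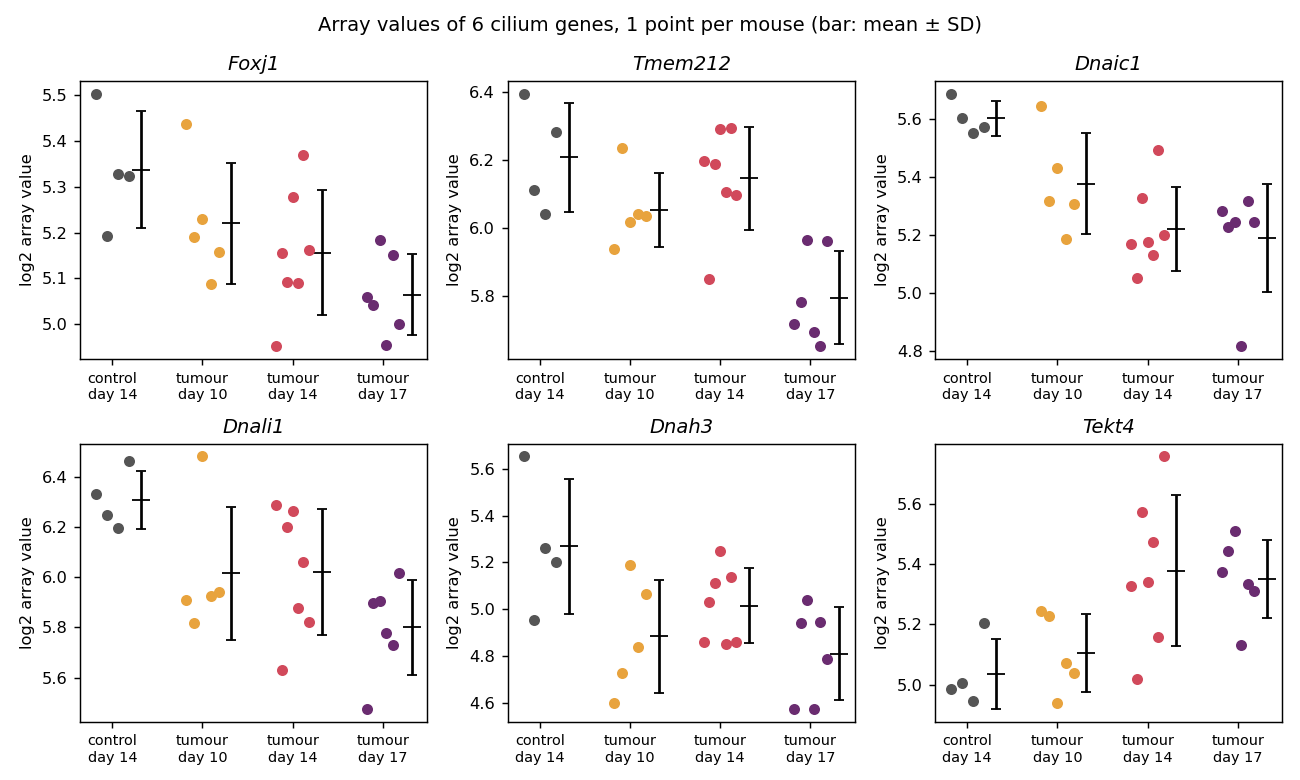
Log2 array values (y axis) of Foxj1, Tmem212, Dnaic1, Dnali1, Dnah3 and Tekt4 by group (x axis), with 1 point per mouse and a bar for mean ± SD. The 6 day 17 points of Tmem212, at 5.65 to 5.96, lie below the 4 controls, at 6.04 to 6.40, while those of Tekt4 lie mostly above them.

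The intermediate and light intermediate chains bind the heavy chains into arms and help fix them to the doublets. Dnaic1 (probe set 10504072), with the X-box shown above, was 5.69, 5.60, 5.55 and 5.57 in controls. Its values were 5.65, 5.32, 5.43, 5.18 and 5.31 on day 10, 5.05 to 5.50 with a median of 5.17 on day 14, and 4.82 to 5.32 with a median of 5.25 on day 17. All arrays of days 14 and 17 lay below all controls, and 1 day 10 array lay among them. The differences were -0.23 ± 0.10, -0.38 ± 0.09 and -0.42 ± 0.10 (SE), with adjusted p-values of 0.427, 0.0947 and 0.0374 in limma. Dnaic2, the partner intermediate chain with an X-box of its own, differed by -0.21 ± 0.09, -0.22 ± 0.08 and -0.17 ± 0.08, which did not pass (adjusted p = 0.318 on day 17). Dnali1, a light intermediate chain of the inner arms, was 6.33, 6.25, 6.19 and 6.46 in controls and 5.48 to 6.02, with a median of 5.84, on day 17. It had the largest difference of the 48 genes on that day, -0.51 ± 0.13, without passing the test (adjusted p = 0.0628), and its day 10 arrays were 5.91, 5.82, 6.48, 5.92 and 5.94.

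The calls for Tmem212 and Dnaic1 were lost without some of the arrays. The difference ran from -0.47 to -0.35 for Tmem212 and from -0.44 to -0.34 for Dnaic1 as each of the 22 arrays was left out in turn, with adjusted p-values of 0.0118 to 0.116 and 0.0251 to 0.128 in limma. The Tmem212 call was lost without control replicate 1, 2 or 4 or day 17 replicate 2, 4 or 5, and the Dnaic1 call without control replicate 1, 2, 3 or 4 or day 17 replicate 2, 3 or 4. The accessions form 2 runs that the labels do not explain. In the run of 9 samples, which holds 1 control and 3 day 17 mice, the difference was -0.57 for Tmem212 and -0.44 for Dnaic1. In the run of 13, with 3 controls and 3 day 17 mice, it was -0.38 and -0.45 (adjusted p = 0.171 and 0.187, with 0 of all genes called).

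The heavy chains are the motors of the arms. None of the 10 measured passed the test in any of the 5 comparisons in limma, and on day 17 an unadjusted p below 0.05 was found for 2 lower and 1 higher gene. Among the inner arm chains, Dnah3 was 5.65, 4.96, 5.26 and 5.20 in controls and 4.57 to 5.04, with a median of 4.86, on day 17. Control replicate 2 lay among the day 17 values. The differences of Dnah3 were -0.38 ± 0.13, -0.25 ± 0.13 and -0.46 ± 0.13 (adjusted p = 0.311, 0.493 and 0.0844). Its 5 probe sets gave day 17 differences of -0.21, -0.12, -0.38, -0.46 and -0.28, all lower. Dnah6 differed by -0.31 on day 17, with -0.52 and -0.27 in its other probe sets. Dnah7b went the other way, at 6.45 to 6.56 in controls and 6.52 to 6.83 on day 17, a difference of 0.20 ± 0.07 that did not pass (adjusted p = 0.17). Its 3 probe sets gave 0.14, 0.20 and 0.12. Dnah12 differed by -0.18, 0.10 and -0.14 on the 3 days, Dnah1 by -0.10 on day 17, Dnah2 by -0.09 and Dnah10 by -0.15. The outer arm chains had small differences on day 17: -0.15 ± 0.09 for Dnah5, 0.03 ± 0.11 for Dnah8 and -0.03 ± 0.07 for Dnah9.

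Radial spokes reach from the doublets to the centre of the axoneme. Rsph1, a spoke head protein, was 5.44, 5.54, 5.43 and 5.28 in controls and 4.91 to 5.41, with a median of 5.14, on day 17. In 5 of 6 day 17 arrays it lay below all controls, and the difference of -0.29 ± 0.11 did not pass (adjusted p = 0.187). Rsph9, another spoke head protein, had a difference of 0.17 ± 0.08 (adjusted p = 0.292), with 5 of 6 day 17 arrays above all controls and day 17 replicate 1, at 7.49, below them. Rsph4a and Rsph14 differed by -0.07 ± 0.12 and 0.02 ± 0.12. The 4 spoke genes therefore split evenly by sign on day 17.

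None of the 4 central apparatus genes passed the test on any day in limma, and 0 had an unadjusted p below 0.05 on day 17. Hydin, a very large protein of the central pair projections, was 5.88, 5.77, 5.66 and 6.00 in controls and 5.54 to 5.99, with a median of 5.66, on day 17. The groups overlapped, and the differences were -0.21 ± 0.11, -0.09 ± 0.10 and -0.12 ± 0.11 on days 10, 14 and 17. Spag6l, Spag16 and Spag17, which encode central pair proteins, differed by -0.01 ± 0.09, 0.12 ± 0.11 and -0.12 ± 0.10 on day 17.

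Tektins are filament proteins of the doublet wall. Tekt4, with an X-box in the stretch shown above, was 4.98, 5.01, 4.95 and 5.20 in controls. On day 10 it was 5.24, 5.23, 4.94, 5.07 and 5.04, on day 14 it ran from 5.02 over 5.34 to 5.76, and on day 17 from 5.13 over 5.35 to 5.51. In 5 of 6 day 17 arrays it lay above all controls. The differences of 0.07 ± 0.11, 0.34 ± 0.10 and 0.32 ± 0.11 did not pass (adjusted p = 0.855, 0.208 and 0.145). Tekt2, with an X-box match, differed by -0.23 ± 0.12 on day 17, Tekt1 by -0.04 ± 0.10 and Tekt5 by 0.08 ± 0.07. Of the genes with an X-box shown above, Dnaic1 was the 1 called, and the mean of Tekt4 was above that of the controls.

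**Figure D2:**
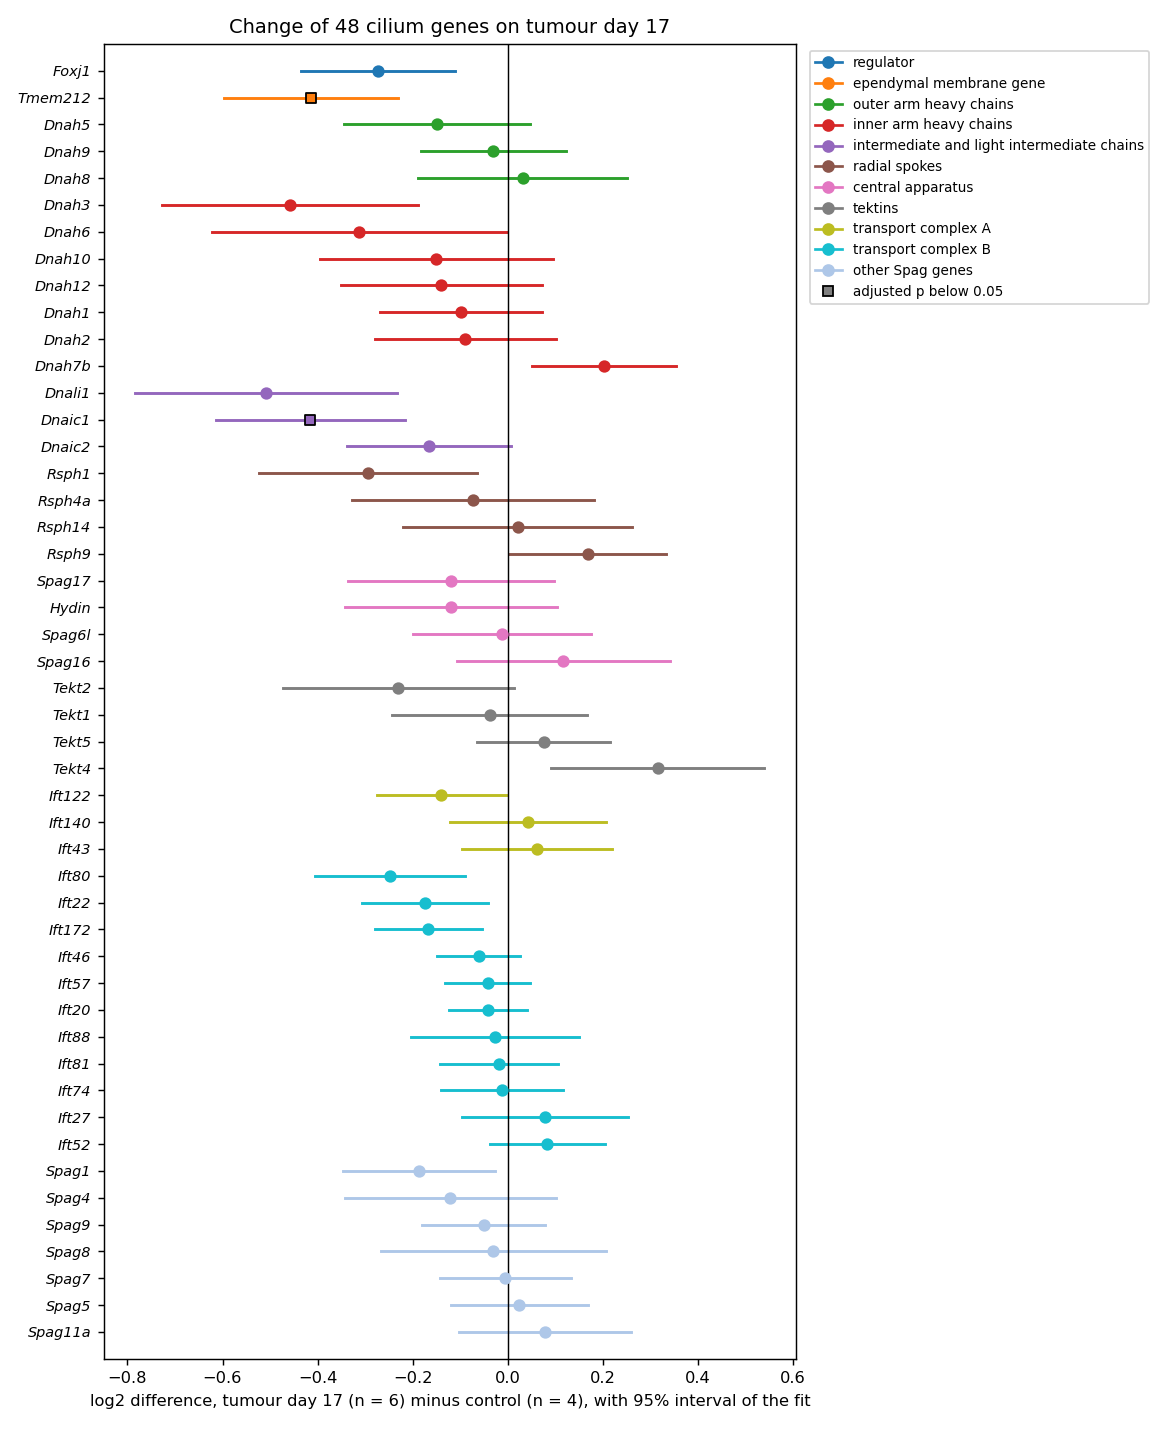
Log2 difference between day 17 tumour mice (n = 6) and controls (n = 4) on the x axis for each of the 48 genes on the y axis, with the 95% interval of the fit as a line, colour for the role and a black-edged square for an adjusted p below 0.05. Only Tmem212 at -0.41 and Dnaic1 at -0.42 are squares, and the transport genes stay between -0.25 and 0.08.

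None of the transport genes passed the test. The 14 measured genes of complexes A and B had day 17 differences between -0.25 and 0.08 with a median of -0.03, and 10 had a lower mean than controls. The 25 axonemal genes ran from -0.51 to 0.32 with a median of -0.10, and 18 had a lower mean. The lower shares were 71.4% of the transport and 72.0% of the axonemal genes, beside 63.1% of genes with a mean above 3.9. Whether the 2 groups of genes differ was not tested; the median SE of the day 17 difference was 0.06 for the transport genes and 0.10 for the axonemal genes. In limma 0 of 14 transport genes were called on any day, and 4 lay lower at an unadjusted p below 0.05 on day 17. All 14 had a 95% interval within 0.5 of 0 on each day, beside 17600, 17853 and 17433 of 18820 genes on days 10, 14 and 17.

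Ift80, a complex B subunit, was 6.87, 6.65, 6.66 and 6.82 in controls and 6.28 to 6.70, with a median of 6.47, on day 17, where 4 of 6 arrays lay below all controls. The difference was -0.25 ± 0.08 (adjusted p = 0.108). Ift172, a large complex B subunit, was 7.21, 7.30, 7.26 and 7.26 in controls and 6.97 to 7.18 on day 17, with no overlap and a difference of -0.17 ± 0.05 (adjusted p = 0.127). Ift22, a small GTPase of complex B, differed by -0.17 ± 0.06 (adjusted p = 0.178), and Ift27, the other GTPase, by 0.08 ± 0.08. Ift46 was lower than every control in all 5 arrays of day 10, all 7 of day 14 and all 6 of day 17, yet the differences were small, -0.11 ± 0.04, -0.06 ± 0.04 and -0.06 ± 0.04, and did not pass (adjusted p = 0.362, 0.633 and 0.481). Its controls were 8.38, 8.40, 8.36 and 8.40. In complex A, Ift122 differed by -0.14 ± 0.07 on day 17 without overlap (adjusted p = 0.285), Ift140 by 0.04 ± 0.08 and Ift43 by 0.06 ± 0.08. Ift20, which brings membrane proteins from the Golgi to the cilium, differed by -0.04 ± 0.04.

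The other Spag genes were kept apart from the axonemal groups, and some have roles outside the axoneme or in its assembly. Spag1, a factor in the assembly of dynein arms in the cytoplasm, was 5.88, 5.92, 6.03 and 6.01 in controls and 5.65 to 5.86 on day 17, with no overlap; its difference of -0.19 ± 0.08 did not pass (adjusted p = 0.231). Spag5, the spindle protein astrin, lay below all controls in all 5 day 10 arrays, with a difference of -0.15 ± 0.07 (adjusted p = 0.458), and differed by 0.02 ± 0.07 on day 17. Spag11a, Spag4, Spag7, Spag8 and Spag9 differed by between -0.12 and 0.08 on day 17, and limma called 0 of these 7 genes on any day, with 1 lower at an unadjusted p below 0.05 on day 17.

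Some arrays were low or high over many of the genes. Of the 25 axonemal genes, day 17 replicate 1 was among the 3 lowest of 22 arrays in 14, day 14 replicate 2 in 12 and day 17 replicate 4 in 10. Among the 3 highest were day 14 replicate 3 in 12 genes and day 14 replicate 4 in 10. For the 14 transport genes, day 17 replicate 1 was among the 3 lowest in 6 and control replicate 4 among the 3 highest in 6. Of the low arrays, 2 belong to the 4 highest in thalamus markers, and their part in the low axonemal values was not tested.

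**Figure D3:**
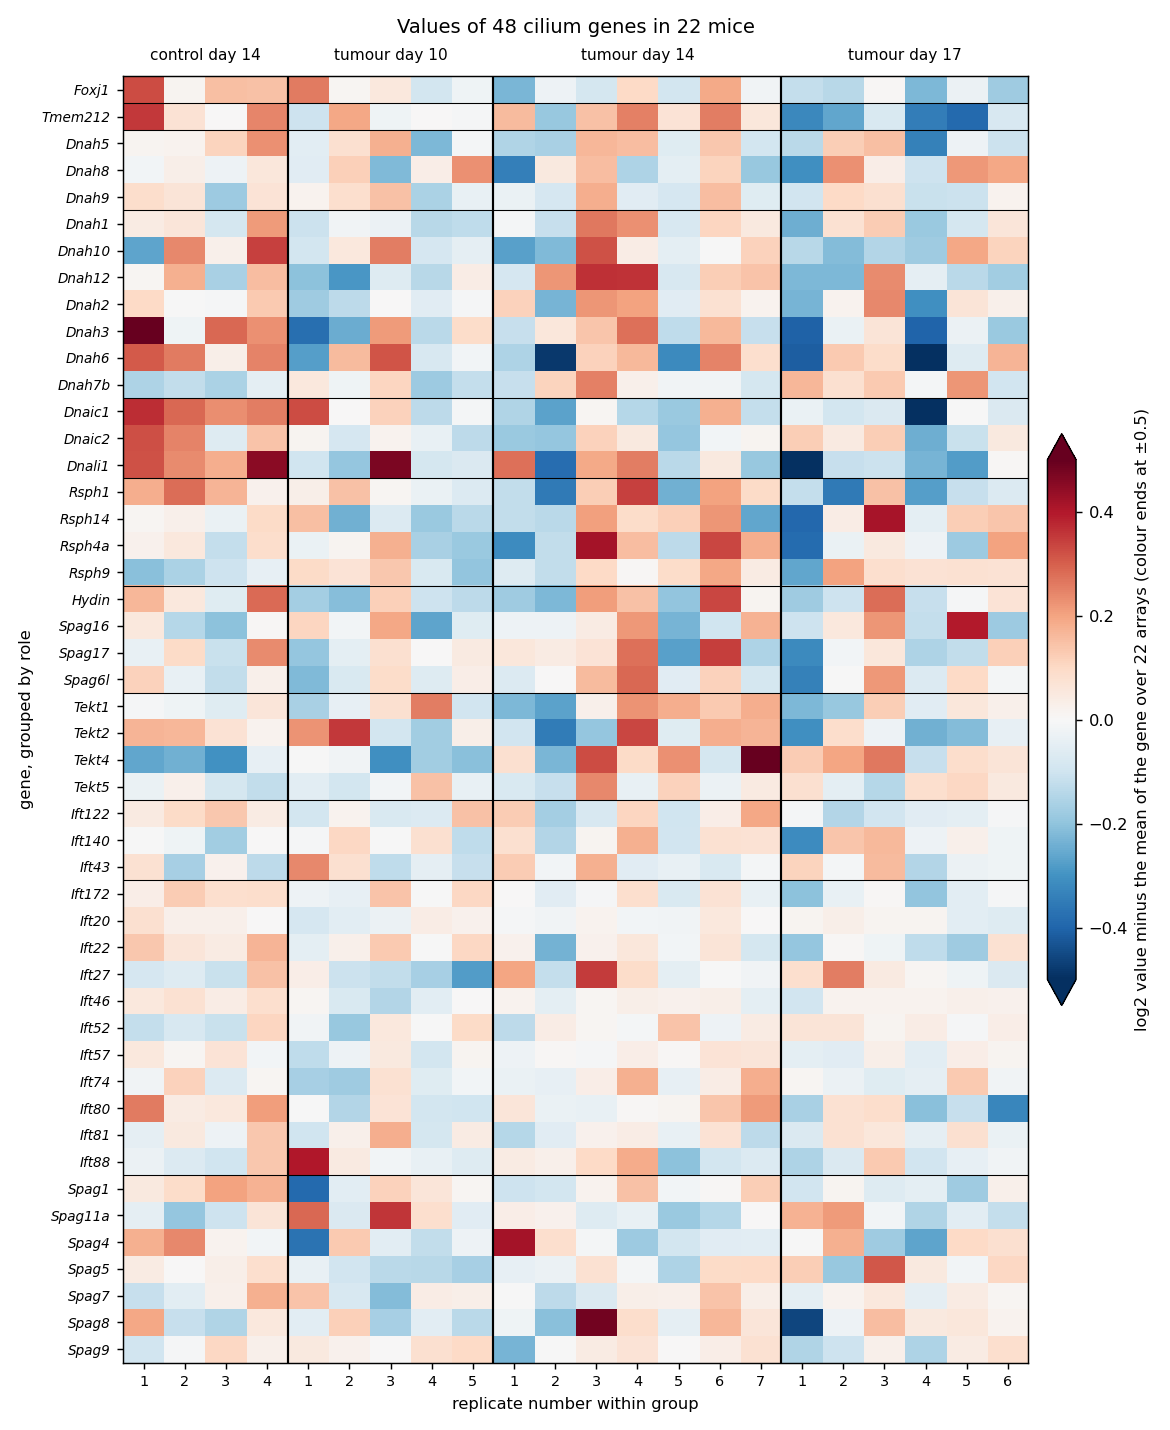
Each row is 1 of the 48 genes, grouped by role, and each column 1 of the 22 mice, grouped and numbered by replicate; colour is the log2 value minus the gene's mean over the 22 arrays, ending at ±0.5. Day 14 replicate 2 and day 17 replicates 1 and 4 are low over many axonemal rows, and day 14 replicates 3 and 4 are high.

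Levels of the genes were then set against Foxj1 over the 22 mice, which asks whether they varied together, differences between the groups included. Of 47 genes, 39 had a Pearson correlation above 0, and 4 passed a permutation test with 100000 resamples, adjusted over the 47 (10 at an unadjusted p below 0.05). Correlations with Foxj1 were not computed for all genes, so these counts have no share over the whole array beside them. Dnaic1 had r = 0.79 (permutation p = 2e-05, adjusted 0.00094) and rho = 0.74 (permutation p = 0.00016, adjusted 0.00376). Rsph1 had r = 0.60 (permutation p = 0.0033, adjusted 0.0409) and rho = 0.77, Dnah3 r = 0.60 (adjusted 0.0409 by permutation) and rho = 0.62, and Ift80 r = 0.59 (adjusted 0.0409 by permutation) and rho = 0.53. By rank Rsph1 and Dnah3 also passed (adjusted 0.00282 and 0.0311 by permutation), and Ift80 did not (adjusted 0.0784). Tekt2 (rho = 0.67, adjusted 0.015 by permutation) and Dnah5 (rho = 0.58, adjusted 0.0476 by permutation) passed by rank only. Without the 2 arrays farthest from the median of Foxj1, control replicate 1 and day 10 replicate 1, r was 0.69 for Dnaic1, 0.64 for Rsph1, 0.75 for Dnah3 and 0.56 for Ift80. With group means subtracted, 0 of 47 passed the adjustment and r for Dnaic1 was 0.65 (permutation p = 0.0014, adjusted 0.0658). Within the accession runs of 9 and 13 samples r for Dnaic1 was 0.85 and 0.77. Tmem212 had r = 0.50 (permutation p = 0.017, adjusted 0.0998), and the lowest value was that of Tekt5, r = -0.41 (adjusted 0.237 by permutation). All 47 correlations share the arrays and their normalization.

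**Figure D4:**
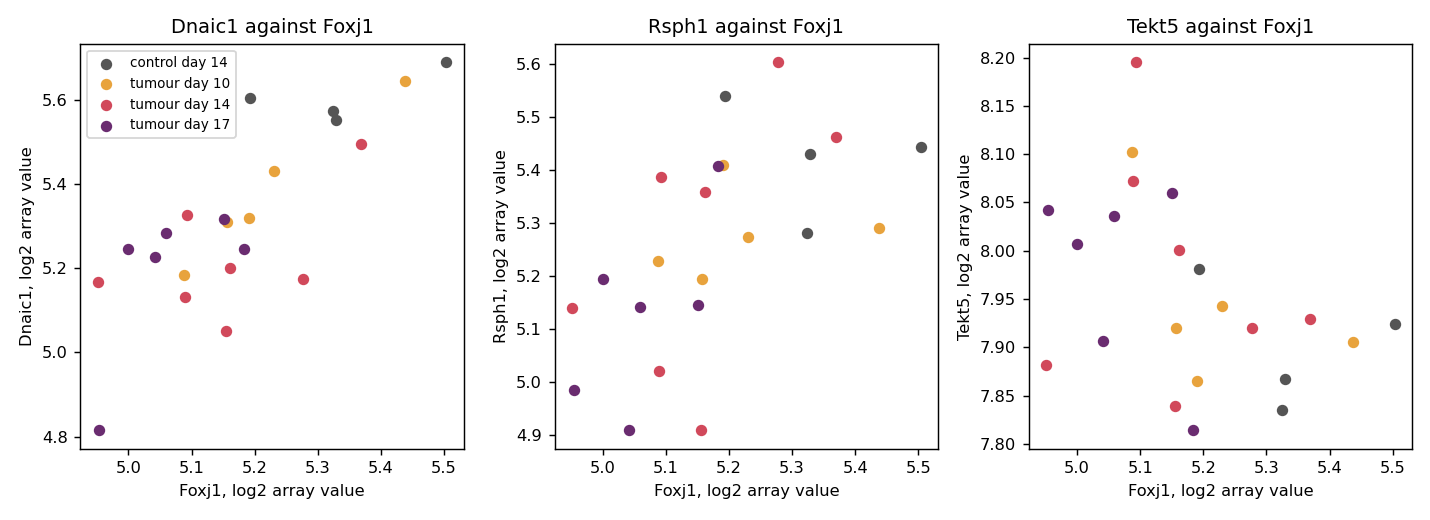
Log2 array values of Dnaic1, Rsph1 and Tekt5 (y axes) against Foxj1 (x axes), with 1 point for each of 22 mice, coloured by group. Dnaic1 and Rsph1 are higher where Foxj1 is higher (r = 0.79 and 0.60), and Tekt5 is lower (r = -0.41).

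Other cilium genes were read from 7 lists holding 106 symbols, of which 88 genes were measured. In limma 0 of 88 were called in any of the 5 comparisons. At an unadjusted p below 0.05 there were 6 on day 10, 7 on day 14 and 14 on day 17, 11 of the last lower, and 8 and 3 between tumour days. The shares of 6.82%, 7.95% and 15.9% on days 10, 14 and 17 stood beside 10.7%, 10.5% and 16.6% of all genes, so they were no higher than over the whole array. On day 17, 66 of the 88 had a lower mean than controls and the median difference was -0.05. Of all genes 53.7% had a lower mean on that day, and of those with a mean above 3.9, 63.1%. Stoml3, a stomatin-like protein of olfactory and ependymal cilia, had the largest day 17 difference, -0.51 ± 0.15 (adjusted p = 0.107), and Cfap45, a protein inside the doublets, differed by -0.27 ± 0.09 (adjusted p = 0.145). Among the 7 dynein assembly factors measured, Zmynd10 differed by -0.24 ± 0.08 (adjusted p = 0.149) and Dnaaf4 by 0.25 ± 0.11 (adjusted p = 0.268). Among 12 docking and ruler genes, Ccdc65 of the nexin-dynein regulatory complex differed by -0.17 ± 0.07 and Iqca by -0.10 ± 0.10. Among the 13 regulators of multiciliation, Rfx4 differed by -0.18 ± 0.06 (adjusted p = 0.152) and Myb by -0.00 ± 0.07. Among 17 other transport genes, Ttc30b differed by 0.02 ± 0.12 and Ttc30a1 by -0.21 ± 0.09. Among 17 genes of the BBSome and the transition zone at the base of the cilium, Cc2d2a differed by 0.22 ± 0.06 (adjusted p = 0.094) and Rpgrip1l by -0.18 ± 0.06 (adjusted p = 0.164). Of 5 genes of the neuronal primary cilium, Sstr3 differed by -0.09 ± 0.12 and Mchr1 by 0.04 ± 0.07.

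Markers of the cells that border the ventricle give the setting of these values. Of 12 ependymal markers outside the 48 genes, 11 were measured, 1 (Mia) of them below background, and limma called 0 on day 17 (4 lower at an unadjusted p below 0.05). Sntn, a cilium tip protein, differed by -0.48 ± 0.13 (adjusted p = 0.0772) and Ccdc153 by -0.44 ± 0.11 (adjusted p = 0.0603). Over the 11 markers the day 17 differences ran from -0.51 to 0.35 with a median of -0.13, and 3 were higher. The mean of the 11 markers ran from 5.96 to 6.30 in controls and from 5.77 to 6.15 on day 17, with 8 of 11 lower. With that mean as a covariate, an alternative added after the data were seen, limma called 1 of the 48 genes on day 17, Tmem212, and 23 of 48 had a lower mean, while Dnaic1 differed by -0.37 (adjusted p = 0.0699). Tanycytes, which carry no tufts of motile cilia and line the floor of the ventricle, had 9 markers measured with means of 5.53 to 6.08 in controls and 5.80 to 6.24 on day 17; 7 of 9 were higher and 0 were called (4 higher at an unadjusted p below 0.05), with Adm at 0.68 ± 0.18 (adjusted p = 0.0629) and Dio2 at 0.36 ± 0.11 (adjusted p = 0.114). Of 9 choroid plexus markers, limma called 0 on day 17 (4 at an unadjusted p below 0.05), and their mean ran from 4.65 to 4.86 in controls and from 4.47 to 4.90 on day 17. Of 7 pituitary, 8 astrocyte and 7 meningeal fibroblast markers, limma called 0 on any day (1, 2 and 0 at an unadjusted p below 0.05 on day 17). Of 10 hypothalamic genes 1 was called higher on day 14 and 2 on day 17, Ghrh at 0.70 and Npy at 1.27. The mean of 5 of these 10 was lower than in controls on day 17, 2 of them at an unadjusted p below 0.05 in limma, with a lowest difference of -0.72. All 7 neuronal markers had a lower mean than controls on days 10, 14 and 17, with 4 lower at an unadjusted p below 0.05 on day 17, and 1 was called lower on that day, Nefl at -0.23 ± 0.06 (adjusted p = 0.0445). The ependymal markers include cilium genes such as Sntn, so their mean as a covariate takes out a shift that such genes share with the 48. It cannot separate fewer ependymal cells from less RNA per cell. The part of cell makeup in the values of the 48 genes was not tested.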

How the data were processed

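Each hypothalamic RNA was hybridised to 1 whole-transcript array, read here from the table of log2 values the authors deposited, which they made with RMA per the submitters' processing notes. RMA subtracts background, normalizes between arrays and summarizes probes, so a shift common to all genes is removed. Its version, the genome build and the annotation are not given in the sources used here. Of 35556 probe sets, 21218 named 1 gene, 1881 several and 12457 none; the probe set with the highest mean stood for each of 18820 genes, and 7 probe sets of these families that name several genes were not used. Apart from the choice of probe sets and genes by their mean and the background, levels were not compared between probe sets.

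Group means of all 22 arrays were estimated in 1 linear model (R 4.3.3; limma 3.58.1), with contrasts, moderated variances without a trend and 18 residual degrees of freedom. Tests were two-sided, adjusted by Benjamini-Hochberg over all genes and called below 0.05. The script was tested on simulated data. Correlations used permutation tests. The number of arrays limits the precision.

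The 48 genes, their roles and all lists were chosen with earlier results of these data known. Foxj1, Hydin, Tmem212 and called genes were always named, then in each role the gene with the highest mean and up to 4 with the smallest p of the F test; in other lists called genes, or else the 2 with the smallest p. Some of the lists' other genes are not analysed here. Replicate numbers of the labels were checked for pairing: over 28 same-numbered pairs the correlation of deviations ran from -0.193 to 0.35. Its median was 0.119, beside -0.00999 for pairs with other numbers. The lowest replicate number lies in the run of 9 samples in every group, and the highest numbers lie in the run of 13. Number and run therefore cannot be fully told apart, in these correlations or in a fit with the number. The main fit used no pairing, and a fit with the number as a block is given below as an alternative.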

Additional observations from a re-analysis of the deposited data

Results flagged for a closer look

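Across 192 combinations of gene and group with 4 to 7 arrays, 9 had an array far from the others of its group by Dixon's criterion, which chance alone gives in about 1 of 20 combinations. Low arrays were control replicate 3 for Dnah9, at 5.852 against a nearest value of 6.097, and for Ift140, at 6.462 against 6.615. On day 17, replicate 4 was low for Dnaic1, at 4.815 against 5.227, and replicate 1 was low for Ift46, at 8.225 against 8.338, for Rsph9, at 7.491 against 7.823, and for Spag8, at 4.697 against 5.132. On day 14, replicate 1 was low for Spag9, at 9.033 against 9.264. High arrays were day 10 replicate 3 for Dnali1, at 6.481 against 5.941, and day 10 replicate 1 for Ift88, at 7.484 against 7.127. All values are on the log2 scale, and without day 17 replicate 4 the Dnaic1 difference on day 17 was -0.34 (adjusted p = 0.0698 in limma).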

How the results depend on the processing

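The day 17 count of 2 called genes was 1 in a fit of the compared groups alone (Dnali1, with Tmem212 and Dnaic1 at adjusted p = 0.0675 and 0.0726 in limma), 15 at an unadjusted p below 0.05, and 0 to 3 as single arrays were left out: 0 without control replicate 1, 2 or 4 or day 17 replicate 2 or 4, and 1 without control replicate 3 or day 17 replicate 3 or 5. Among alternatives chosen after seeing the data, it was 0 without the 4 arrays highest in thalamus markers, 1 with the ependymal marker mean as covariate and 0 in the last 13 samples, and 0 of all genes were called in the first and the last of these. With the thalamus marker mean as covariate Dnaic1 had an adjusted p of 0.0646. Unadjusted counts were 9 on day 10, 6 on day 14, 7 between days 17 and 10 and 4 between days 14 and 10, where the main counts were 0. With the replicate number as a block, day 14 gave 1 (Dnaic1) and day 17 gave 3 (Dnaic1, Dnali1 and Tmem212), with 616 genes called in all against 211; 15 of 28 pairs correlated above 0.1 and 5 of 22 arrays correlated best with their own number. Leaving out single arrays gave 0 to 1 on day 14. The Foxj1 correlations that passed numbered 4 in the main test, 0 with group means subtracted and 8 in the last 13 samples. For the changed counts the cause was not tested. An intensity trend, array weights, both rescalings, the mean of all probe sets, a term for the accession run and the filter at 3.9 left the day 17 count within 2 to 3 and the sign of Tmem212 and Dnaic1 as it was.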
